A study of Mus musculus with 8 samples.

Results

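The genes described here are those for the proteins of the cytosolic ribosome. They were taken by name from the deposited table: symbols that start with Rpl or Rps followed by a digit, and Rplp0, Rplp1, Rplp2 and Rpsa, without pseudogene lines and without the S6 kinases. This gave 83 of the 14883 gene lines, with 43 large-subunit proteins, 31 small-subunit proteins, 3 proteins of the stalk, 5 paralogs (Rps27l, Rpl22l1, Rpl36al, Rpl7l1 and Rps4y2) and Rps19bp1, a binding partner of Rps19 that is no subunit and came in by its name. The study profiled single live cells from the mammary gland of mice of mixed strain at 5 weeks of age, in puberty, to find basal and luminal cell types. No transgene or treatment is named in the labels. The 8 libraries, numbered 1 to 4 on plate 1 and 1 to 4 on plate 2, hold 96 wells each. Ducts and their growing tips, the terminal end buds, were both dissected, but the labels tie no library to either tissue or to an animal. The p-values therefore measure the spread among libraries only, and that spread may be technical.

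A ribosome needs these proteins in fixed proportion, and cells make them in step with each other. Their mRNAs are among the most abundant in growing cells, and most belong to the TOP class, which starts with a tract of pyrimidines at the 5′ end and is translated or held back as the mTORC1 pathway is more or less active. In the mammary epithelium, basal cells are contractile, hormone-sensing luminal cells carry the steroid and prolactin receptors, and secretory luminal cells are the lineage that makes milk.

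The TOP tract can be read at the annotated starts of the genes. Of the 83 genes, 62 were found in the RefSeq table of start sites (GRCm38.p6), and 13 of them (21.0%) had C followed by 4 letters that are each C or T exactly at an annotated start, on the transcribed strand. The same match was found for 813 of 27025 genes (3.01%) in that table and for 0 of 67 mitochondrial ribosomal protein genes. Within 10 bases on either side of the start the match was found for 51.6% of the ribosomal protein genes, 38.8% of the mitochondrial ones and 28.8% of all genes. A match describes these letters only, and an annotated start can lie some bases away from the one used. The windows below run from 10 bases before to 20 bases from the start, 5′ to 3′ on the transcribed strand, and capitals mark an unbroken run of C and T that begins at the start with C. Rps6, Rps27 and Rplp2 show the run, and Rps27l, the paralog of Rps27, is set beside them because its levels differed from those of its parent. Another annotated start of Rps27l had no run either. No run began at the annotated starts of Rps12, Rps4x and Rpl23, which are called below. The same held for Rpl36a and Rpl22 and for their paralogs Rpl36al and Rpl22l1. A link between the run and the levels was not tested.
Rps6 (chr4:86857348-86857377, minus strand): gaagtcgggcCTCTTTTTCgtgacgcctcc
Rps27 (chr3:90213629-90213658, minus strand): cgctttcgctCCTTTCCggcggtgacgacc
Rps27l (chr9:66946076-66946105, plus strand): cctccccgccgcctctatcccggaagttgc
Rplp2 (chr7:141447641-141447670, plus strand): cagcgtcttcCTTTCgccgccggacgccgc

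Wells were kept as cells when they held at least 1500 transcripts and 500 genes, which left 114 of 768 wells (14.8%). A cell was called basal when Acta2, Tagln and Myl9, genes of the contractile apparatus, summed to more transcripts than the keratins Krt8, Krt18 and Krt19. It was called luminal when the reverse held, and luminal cells were hormone-sensing when the prolactin receptor Prlr exceeded the iron carrier Trf, and secretory otherwise. This gave 66 basal, 14 hormone-sensing and 28 secretory cells, and 6 cells in which both sums were 0. The classes are ranges of marker sums: 12 cells lay within 2 transcripts of the first cut and 2 luminal cells within 2 of the second. The 12 include the 6 cells with both sums at 0. The others were led by markers of another cell type, described below. Over cells, the median level of the wider lists followed the names. Each list includes the genes that the rule used, so this agreement is partly set by the rule and is no independent check. The basal list stood at 124 per 10000 transcripts in basal cells and at 0.0864 and 0.109 in hormone-sensing and secretory cells. The luminal list stood at 2.43, 99.2 and 43.0 in that order, the hormone-sensing list at 0, 80.0 and 3.65, and the secretory list at 10.4, 1.92 and 228. Basal cells came mostly from libraries 2 and 4 of both plates and luminal cells from libraries 1 and 3 alone. Summed transcripts per library and class ranged from 12378 to 586868 in the sums used below. Between libraries 37 well numbers were kept more than once, since barcodes name only the well, and 0 pairs of columns were identical.

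Ribosomal protein mRNAs made up 14.4% of the transcripts of the 108 basal and luminal cells, and 57 of the 100 most abundant genes were among them. Among the most abundant were Rpl17 at 34.2 per 10000 transcripts, Rpl13 and Rpl41 at 32.7 each, Rps12 at 29.5 and the stalk protein Rplp1 at 29.4. The 10 most abundant together held 21.2% of all ribosomal protein transcripts, so no small group dominated. The median gene stood at 18.0 per 10000, and 69 of the 83 were above 10. Each molecule is counted once from its 3′ end, so these levels do not scale with transcript length. Median levels were 18.0 for the large-subunit genes and 19.8 for the small-subunit genes.

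A few genes stood far below the rest. Rps4y2 was at 0.154 per 10000, Rps19bp1 at 0.285, Rpl26 at 0.302, Rpl30 at 0.524, Rps27 at 0.962, Rplp2 at 1.08 and Rpl34 at 1.63, while the other paralogs lay between 3.73 (Rpl7l1) and 5.05 (Rpl36al). Rpl26, Rpl30, Rps27, Rplp2 and Rpl34 encode core subunits. Ribosomal protein genes have many near-identical pseudogene copies to which reads could have been assigned, and that part in the low values was not tested. The table's 6 lines named as ribosomal pseudogenes held 0.337% of transcripts.

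Secretory cells carried the largest share of ribosomal protein transcripts. In the secretory sums the share was 17.5% (plate 1 library 1), 17.4% (plate 1 library 3), 19.1% (plate 2 library 1) and 17.6% (plate 2 library 3), a mean of 17.9% ± 0.788 (SD, n = 4). In the hormone-sensing sums it was 11.6%, 14.6% and 10.8% in the last 3 of those libraries, a mean of 12.4% ± 1.98 (SD, n = 3). The single hormone-sensing cell of plate 1 library 1 stood at 10.5%. In the basal sums it was 9.58% (plate 1 library 2), 14.7% (plate 1 library 4), 14.5% (plate 2 library 2) and 14.1% (plate 2 library 4), a mean of 13.2% ± 2.43 (SD, n = 4). The lowest secretory sum was above the highest basal and the highest hormone-sensing sum, and the basal and hormone-sensing sums overlapped. Within the 3 libraries that held at least 3 cells of both luminal classes, the secretory share exceeded the hormone-sensing share by 5.75, 4.46 and 6.73 percentage points, a mean of 5.64 ± 1.14 (SD, n = 3). These shares add up genes that were chosen with earlier results in view and are given without a test. Wilson 95% intervals, which cover counting error only, were narrow, for example 18.4% to 19.8% in the smallest sum (secretory, plate 2 library 1).

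**Figure D1:**
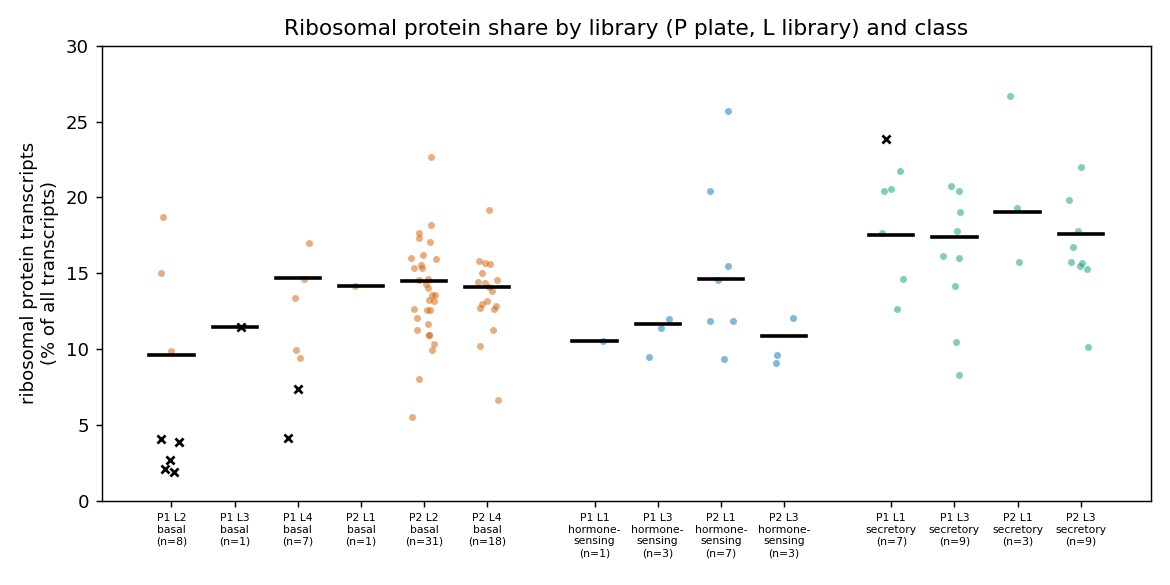
Share of ribosomal protein transcripts (% of all transcripts, y axis) in every basal, hormone-sensing and secretory cell, by library and class (x axis, n is the number of cells); the bar is the share of the summed transcripts and a cross is a cell led by markers of another cell type. The secretory bars sit between 17.4% and 19.1%, above every basal and hormone-sensing bar, and 5 of the 8 basal cells of plate 1 library 2 are crosses.

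Single cells spread widely within each class. The median cell was at 13.3% in basal cells (range 1.87% to 22.7%), at 11.8% in hormone-sensing cells (9.05% to 25.7%) and at 17.2% in secretory cells (8.26% to 26.7%), so the classes overlapped cell by cell. Depth differed too, with medians of 13450 transcripts per basal cell, 17924 per hormone-sensing cell and 7102 per secretory cell. Across cells the Spearman correlation of share with depth was 0.473 in 66 basal cells, 0.297 in 14 hormone-sensing cells and 0.012 in 28 secretory cells. In a band of 4000 to 20000 transcripts, chosen after the data were seen, the median share was 13.2% in 25 basal cells, 10.5% in 7 hormone-sensing cells and 16.1% in 20 secretory cells. The median depths in that band were 7653, 8501 and 8432 transcripts. Thinning every cell to 1500 transcripts gave class means of 11.3%, 12.4% and 17.7%. Thinning leaves the expected share of each cell unchanged and gives cells equal weight. It therefore cannot remove a relation of share with depth.

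**Figure D2:**
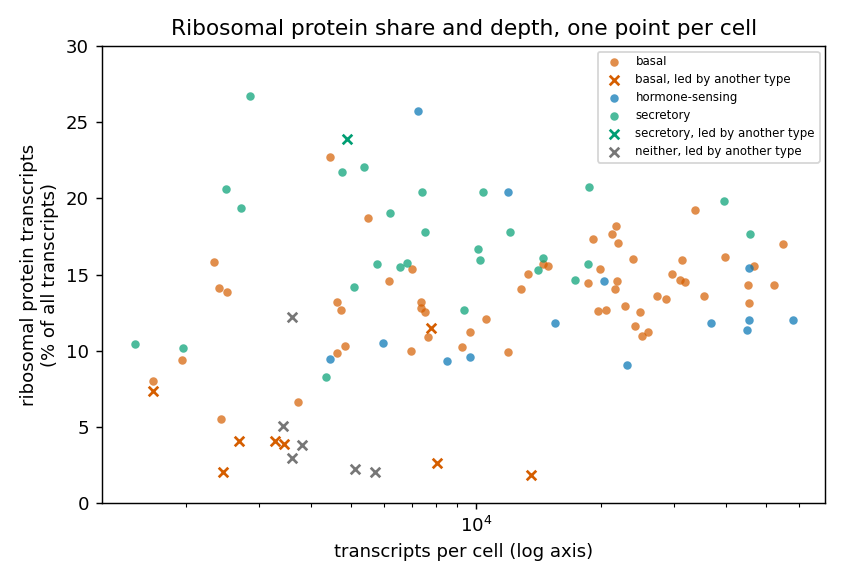
Share of ribosomal protein transcripts (%, y axis) against transcripts per cell (log x axis), 1 point per cell, coloured by class; crosses are cells led by another cell type's markers. Most crosses lie under 8% at low depth, and secretory cells reach high shares at low as well as at high depth.

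The lowest shares belonged to cells that carried genes of other cell types. In 15 cells a marker list of another type stood above the basal, luminal, hormone-sensing and secretory lists added together. Their median share was 3.86% (range 1.87% to 23.9%), against 14.4% (5.52% to 26.7%) in the 99 other cells. They had a median of 3600 transcripts, against 12046. Of these cells 7 were led by the fatty-acid carrier Fabp4 with 334 transcripts, at shares of 2.07% to 7.37%. The adipocyte genes Adipoq and Plin1 were at 0 in them, while the endothelial receptor Kdr was found in 7 and the endothelial cadherin Cdh5 in 6. A pair of cells with collagen transcripts stood at 1.87% and 2.06%, and 1 cell with myelin genes at 2.26%. A pair led by alpha-globin stood at 2.97% and 11.5%, and 3 led by Cd74, the invariant chain of antigen presentation, at 5.08%, 12.2% and 23.9%. The rule placed 8 of the 15 cells in the basal class, 1 in the secretory class and 6 in neither. Setting them aside raised the basal mean from 13.2% to 14.6% and left the secretory mean at 17.8%. The mean of 14.6% no longer includes plate 1 library 2, where 5 of the 8 basal cells were such cells and too few then remained.

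The balance between the subunits lay in a narrow range. Small-subunit transcripts were 44.1%, 42.9% and 43.2% of the large and small total in hormone-sensing cells, and 45.8%, 44.3% and 46.1% in secretory cells of the same libraries (plate 1 library 3, plate 2 library 1 and plate 2 library 3). The secretory value was higher in each of the 3 libraries. In the 4 basal sums it lay between 44.1% and 45.0%.

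Between basal and luminal cells few ribosomal protein genes changed, and those that did were 2 paralogs and a stalk protein, all lower in basal cells. Sums of 4 libraries with basal cells were set against sums of 4 others with luminal cells, and no library supplied both, which means that class and library cannot be told apart. With edgeR's quasi-likelihood test and Benjamini-Hochberg adjustment over 3420 genes, 0 of the 80 ribosomal protein genes tested were higher in basal cells, where 8.07% of all genes tested were, and 3 of 80 (3.75%) were lower, where 6.7% of all genes were. At an unadjusted p under 0.05 there were 0 higher and 6 lower (7.5%), where 13.6% and 12% of all genes were. DESeq2 also called 0 higher and 3 lower, against 9.04% and 7.6% of all genes. Rpl26, Rps19bp1 and Rps4y2 were too low to be tested. The median log2 change was -0.20, against -0.00 over all genes, and 72 of 80 changes were negative, where 50% of all genes were. In 10 of 80 genes (12.5%) every basal sum lay below every luminal sum, against 8.74% of all genes, and in 0 of 80 every basal sum lay above, against 10.4%. The direction was far less uniform when cells led by another type were set aside, which also removed a basal sum. The median was then -0.07, against -0.01 over all genes, and 46 of 80 changes were negative, where 50.3% of all genes were.

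Rps27l is a paralog of the small-subunit protein Rps27 and a known p53 target (mm10 chr9:66946086-66949516, protein-coding). Its levels were 1.86, 2.80, 3.00 and 3.30 per 10000 in the basal sums (plate 1 libraries 2 and 4, plate 2 libraries 2 and 4) and 6.54, 4.71, 6.95 and 5.51 in the luminal sums (plate 1 libraries 1 and 3, plate 2 libraries 1 and 3). No basal sum reached a luminal one, and the log2 change was -1.08 ± 0.25 (SE; edgeR adjusted p = 0.0104). The call held when any 1 library was left out.
Rpl36al is the paralog of Rpl36a (mm10 chr12:69182731-69184083, protein-coding). It stood at 3.57, 2.51, 4.26 and 4.23 per 10000 in the basal sums and at 5.45, 7.17, 8.46 and 5.92 in the luminal sums, without overlap. Its log2 change was -0.87 ± 0.25 (SE; edgeR adjusted p = 0.0348). The call was lost without plate 1 library 3 or 4 or plate 2 library 1, 2 or 4 (adjusted p 0.0694 to 0.118) and with cells led by another type set aside (adjusted p = 0.0531), and also with no filter on low counts (adjusted p = 0.10, edgeR).
Rplp1 is an acidic protein of the stalk that recruits elongation factors (mm10 chr9:61913284-61914542, protein-coding). It stood at 23.8, 25.7, 24.4 and 24.4 per 10000 in the basal sums and at 45.2, 36.1, 36.6 and 37.1 in the luminal sums. The groups did not overlap, and the log2 change was -0.66 ± 0.17 (SE; edgeR adjusted p = 0.0184). Without plate 1 library 4, plate 2 library 2 or plate 2 library 4 its adjusted p was 0.0638 to 0.0748. It was 0.169 with no filter on low counts and 0.0519 with cells thinned to 1500 transcripts.

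The basal sums were also set against each luminal class alone, in fits that were added after the data were seen and that share the basal sums. Against secretory sums alone 7 of 78 ribosomal protein genes were lower in basal cells (8.97%) and 0 higher, against 7.08% and 9.24% of all genes, with a median log2 change of -0.47. Against hormone-sensing sums alone 2 were lower, Rps27l and Rpl36al, and 1 was higher, against 11% and 13.6% of all genes, with a median of 0.16. The calls were thus near or below the share of all genes in both fits. Rps27l fell against hormone-sensing sums (-1.35, edgeR adjusted p = 0.00307) and was at -0.54 against secretory sums (adjusted p = 0.333). Rplp1 fell against secretory sums (-0.78, adjusted p = 0.0127) and was at -0.40 against hormone-sensing sums (adjusted p = 0.141). The gene higher in basal cells than in hormone-sensing cells was Rpl7, a large-subunit protein (mm10 chr1:16101295-16104662), at 0.84 (adjusted p = 0.0241). With cells led by another type set aside, 13 of 78 (16.7%) were lower against secretory sums and 0 higher, where 11.6% and 12.8% of all genes were. Against hormone-sensing sums 7 were then higher (8.97%) and 2 lower (2.56%), where 14.9% and 13.5% of all genes were.

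Rpl7 and its paralog Rpl7l1 moved apart once the cells of other types were left out. Rpl7 stood at 17.6, 31.2, 30.4 and 32.5 per 10000 in the basal sums and at 25.7, 19.1, 19.5 and 19.7 in the luminal sums. Plate 1 library 2 was the low basal sum, and plate 1 library 1 the high luminal one. Over all cells the log2 change was 0.41 ± 0.22 (SE; edgeR adjusted p = 0.281), and with cells led by another type set aside, which removes the sum of plate 1 library 2, it was 0.63 (adjusted p = 0.0105). Rpl7l1 (mm10 chr17:46773907-46782672), a Rpl7-like gene, stood at 8.28, 2.80, 1.94 and 2.47 in the basal sums and at 6.44, 5.42, 7.52 and 4.26 in the luminal sums. Its log2 change was -0.68 ± 0.42 (SE; adjusted p = 0.356) over all cells and -1.29 (adjusted p = 0.00582) without them.

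Between the luminal classes most ribosomal protein genes were lower in hormone-sensing than in secretory cells, and few of these changes passed the test. Hormone-sensing and secretory sums of the same 3 libraries were compared with the library as a block, and the p-values rest on the spread pooled over genes. Of 78 ribosomal protein genes tested, 5 were lower in hormone-sensing cells (6.41%), where 6.92% of the 2458 genes tested were, and 0 were higher, where 5.17% were. DESeq2 called 1 lower and 0 higher, against 5.45% and 3.91% of all genes. The share of calls was therefore near that of all genes. The direction was more uniform than the calls: 74 of 78 changes were negative and the median log2 change was -0.68, against 0.11 over all genes. In 53 of 78 genes (67.9%) the hormone-sensing level was the lower one in all 3 libraries, against 15.5% of all genes, and Rpl18 and Rps27l were higher in all 3. At an unadjusted p under 0.05 there were 31 genes (39.7%), all lower, where 11.6% of all genes were lower and 10.1% higher. Small-subunit genes had a median of -0.79 (31 of 31 negative) and large-subunit genes of -0.64 (39 of 41 negative).

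**Figure D3:**
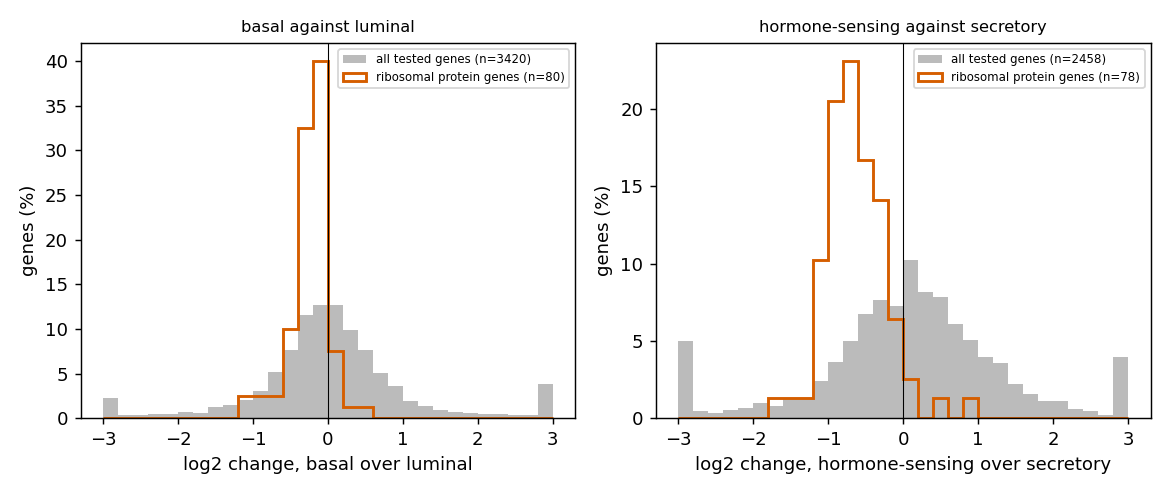
Distribution of log2 changes (x axis) of all tested genes (grey) and of ribosomal protein genes (orange outline), as % of genes (y axis), for basal over luminal and hormone-sensing over secretory; changes beyond 3 are counted in the end bins. The ribosomal protein genes lie close to 0 on the left (median -0.20) and to the left of the other genes on the right (median -0.68 against 0.11).

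The 5 genes called lower were given per 10000 transcripts in the order plate 1 library 3, plate 2 library 1 and plate 2 library 3. Rpl23a, which sits at the peptide exit of the large subunit (mm10 chr11:78180932-78183584), stood at 16.1, 21.9 and 17.4 in hormone-sensing and 31.3, 57.4 and 33.8 in secretory cells (log2 change -1.21 ± 0.36 SE; edgeR adjusted p = 0.00831). Rps12, a small-subunit protein (chr10:23785183-23787275), stood at 22.5, 25.1 and 16.7 against 37.2, 57.4 and 37.4 (-1.14 ± 0.35; edgeR adjusted p = 0.0119). Rps6, whose phosphorylation follows mTORC1 activity (chr4:86854660-86857412), stood at 19.9, 19.9 and 16.0 against 38.7, 42.8 and 31.3 (-1.12 ± 0.36; edgeR adjusted p = 0.0189). In these 3 genes the lowest secretory level was above the highest hormone-sensing level.
Rps4x, the X-linked form of small-subunit protein S4 (chrX:102184941-102189394), stood at 15.7, 24.2 and 12.0 in hormone-sensing and 35.3, 29.1 and 34.2 in secretory cells (-1.12 ± 0.38; edgeR adjusted p = 0.0291). Rpl23, a large-subunit protein at the subunit interface (chr11:97777527-97782437), stood at 20.5, 32.2 and 22.6 against 36.8, 65.4 and 35.8 (-0.95 ± 0.34; edgeR adjusted p = 0.0442). The groups did not overlap in these genes either, and all 5 were lower in 3 of 3 libraries. Overlap was read only for genes already called, and the share of all genes without it was not counted. In plate 1 library 1, which the fit does not use, Rpl23a was at 51.9 in the single hormone-sensing cell and 32.8 in secretory cells. Rps12, Rps6, Rps4x and Rpl23 were lower in that cell than in the secretory cells. When any 1 of the 3 libraries was left out, 0 ribosomal protein genes passed the threshold. Calls among all genes fell too, to between 0.452% and 3.67% lower and between 0.101% and 3.46% higher. With all 3 libraries these were 6.92% and 5.17%. In plate 2 library 1 the secretory sum held 12378 transcripts against 145951 in the hormone-sensing sum.

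The number of calls moved with the scaling. With no scaling factors 16 ribosomal protein genes were lower (20.5%), where 6.75% of all genes were lower and 7.77% higher. With DESeq2-type size factors in edgeR 17 were lower (21.8%), where 7.61% of all genes were lower and 6.18% higher. With factors from genes outside the list 7 were lower. In that last fit 6.27% of all genes were higher and 6.63% lower in hormone-sensing cells. Leaving out the scaling moved the median of all genes from 0.11 to 0.35, and the median of the ribosomal protein genes then stood at -0.49. In each of these settings 0 were called higher. The 5 genes kept their sign in all 16 alternatives, with adjusted p-values from 0.000799 to 0.978.

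Some genes stood near 0 while most were lower. Rpl41, a very small large-subunit protein, was at 35.5, 38.0 and 30.2 per 10000 in hormone-sensing and 34.9, 27.5 and 37.3 in secretory cells, a log2 change of -0.07 ± 0.34 (SE). The stalk base protein Rplp0 was at 21.1, 27.0 and 21.1 against 21.6, 19.4 and 25.3, a log2 change of -0.08 ± 0.38. Rpl18 (0.04), Rpl19 (0.02), Rpl29 (-0.07), Rpl15 (-0.07) and Rps3 (-0.07) also lay close to 0, and all had adjusted p-values above 0.9 with edgeR. Their standard errors were 0.34 to 0.50. Rpl41 and Rplp0 kept their sign in 10 of 16 alternatives. Across the 78 genes the log2 change had a Spearman correlation of 0.445 with the median GC content of the annotated transcripts, 0.086 with their length and -0.221 with the level of the gene. These describe genes of shared libraries and are no test.

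**Figure D4:**
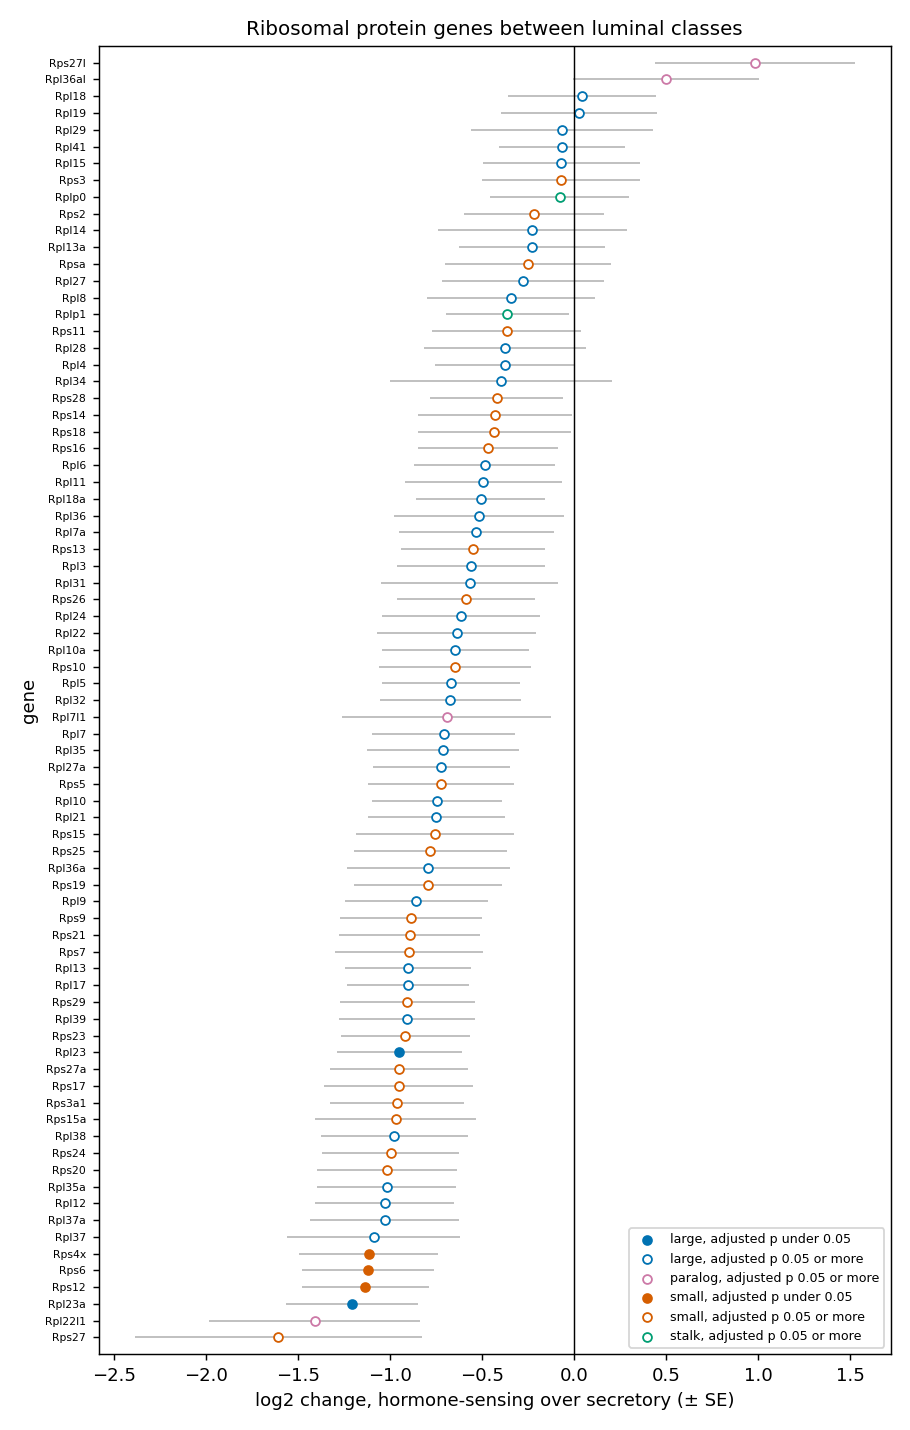
Log2 change of 77 of the 78 tested ribosomal protein genes, hormone-sensing over secretory (x axis, bars ± SE), ordered by size (y axis) and coloured by subunit; filled points have an edgeR adjusted p under 0.05. All but 4 points lie left of 0, Rpl23a, Rps12, Rps6, Rps4x and Rpl23 are filled, and Rps27l and Rpl36al lie furthest right.

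The paralogs Rps27l and Rpl36al lay on the other side of 0 from their parents. Rps27l stood at 6.34, 7.06 and 8.80 per 10000 in hormone-sensing cells and at 2.39, 5.66 and 3.24 in secretory cells of the same libraries, and its log2 change was 0.98 ± 0.54 (SE; edgeR adjusted p = 0.285). Its parent Rps27, a low-count gene here, stood at 0.652, 1.30 and 0.128 against 1.46, 3.23 and 0.877, a log2 change of -1.61 ± 0.78 (adjusted p = 0.197). Rps27l was higher and Rps27 lower in hormone-sensing cells in 3 of 3 libraries, though neither change passed the threshold and the difference between them was not tested. Rpl36al stood at 9.13, 8.36 and 8.17 against 4.37, 9.69 and 4.38 (0.50 ± 0.51, adjusted p = 0.679). Rpl36a was at 11.1, 11.5 and 7.78 against 17.4, 12.1 and 17.9 (-0.79 ± 0.44, adjusted p = 0.293). Rpl36al exceeded the secretory level in 2 of 3 libraries and Rpl36a was lower in 3 of 3.
Rpl22l1 and its parent were both lower in hormone-sensing cells in 3 of 3 libraries, without passing the test. Rpl22l1 stood at 2.52, 3.97 and 0.766 against 3.45, 9.69 and 4.12 (-1.41 ± 0.57, adjusted p = 0.0927), and Rpl22, at 9.97, 13.7 and 10.5 against 14.4, 17.0 and 17.0, had a log2 change of -0.64 ± 0.43 (adjusted p = 0.434). Rpl7l1 stood at 2.61, 7.88 and 3.32 against 9.41, 3.23 and 4.91, with no common direction (-0.69 ± 0.57). Rps4y2, related to Rps4x, held 27 transcripts in all 108 cells and was not tested.

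**Figure D5:**
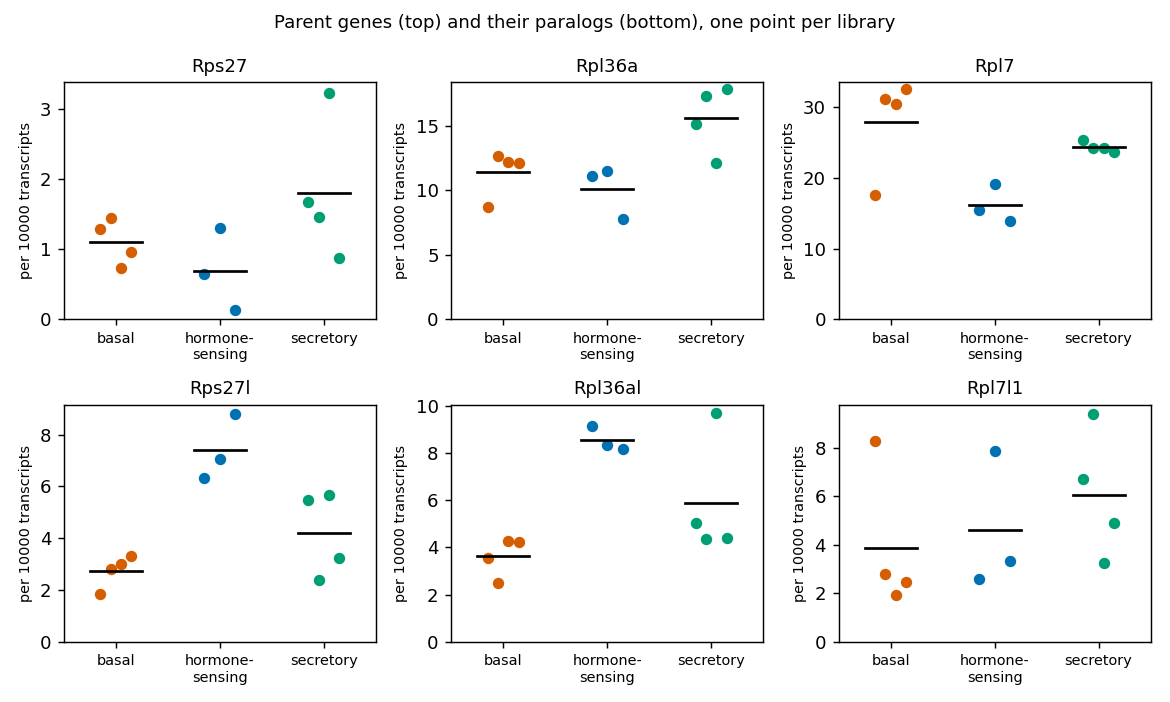
Levels per 10000 transcripts (y axis) of Rps27, Rpl36a and Rpl7 (top) and of their paralogs Rps27l, Rpl36al and Rpl7l1 (bottom) in basal, hormone-sensing and secretory sums (x axis), 1 point per library with the mean as a bar. Rps27l and Rpl36al are highest on average in hormone-sensing cells, where Rps27, Rpl36a and Rpl7 are lowest.

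Beyond the ribosome itself, lists of translation genes were read in the same fits. Of 14 tested genes for elongation factors and other TOP mRNAs, 5 were lower in hormone-sensing than in secretory cells and 0 higher. Of all genes 6.92% were lower and 5.17% higher. In the list 13 of 14 changes were negative and the median was -0.60. The 5 were Gas5 (-2.17 ± 0.53 SE; edgeR adjusted p = 0.000773) and Snhg1 (-1.72 ± 0.62; 0.0461), non-coding hosts of small nucleolar RNAs, the poly(A)-binding protein Pabpc1 (-1.19 ± 0.36; 0.0113), the elongation factor Eef1a1 (-0.91 ± 0.27; 0.00863) and Tpt1 (-0.91 ± 0.30; 0.0264). Eef1a1, the most abundant of them, stood at 60.6, 95.9 and 63.2 per 10000 in hormone-sensing and 129, 149 and 101 in secretory cells. In these 3 libraries every secretory sum of Eef1a1 was above every hormone-sensing one, while the secretory sum of plate 1 library 1, which the fit does not use, stood at 89.5.
Other parts of the translation machinery had no calls between the luminal classes with edgeR: 0 of 32 initiation factors, 0 of 17 biogenesis genes, 0 of 12 mitochondrial ribosomal proteins and 0 of 6 growth-control genes. With 6.92% of all genes lower and 5.17% higher, 0 calls in lists of 12 or 6 genes say little about them. The initiation factor Eif1 was at -0.04 ± 0.43 and the nucleolar chaperone Npm1 at -0.19 ± 0.48. The median changes of these 4 lists were 0.24, -0.06, 0.10 and -0.34.
Between basal and luminal cells 1 of 15 genes of the elongation and TOP list was higher, the intermediate filament gene Vim (5.49 ± 0.78 SE; edgeR adjusted p = 0.000236). Of 27 mitochondrial ribosomal proteins, Mrpl14 (-1.46 ± 0.29; edgeR adjusted p = 0.00322) and Mrpl43 (-1.68 ± 0.41; 0.0137) were lower in basal cells. Of 33 initiation factors, 28 biogenesis genes and 7 growth-control genes, 0 were called. Of all genes in that fit 8.07% were higher and 6.7% lower in basal cells.

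No ribosomal protein gene was called between the plates. Of 80 tested, 0 were higher on plate 2 and 0 lower with edgeR, as for all 3649 genes (0% each way), and at an unadjusted p under 0.05 there was 1, the stalk protein Rplp2, among 109 genes in all. DESeq2 called 0 as well. The median log2 change was 0.05. Rplp2 stood at -2.28 ± 0.85 (SE; adjusted p = 1.00) and Rpsa, a small-subunit protein also known as a laminin receptor, at -0.78 ± 0.37 (adjusted p = 1.00). No difference between the plates in the basal-luminal change was detected, with 0 of 80 genes and 0 of 5031 overall (0% each way) with edgeR, and 0 ribosomal protein genes among 221 genes at an unadjusted p under 0.05. Within plate 1 alone, with 2 sums per class, the basal-luminal median was -0.39 and 0 genes were called, where 4.22% of all genes were higher and 2.73% lower. Within plate 2 alone, also with 2 sums per class, it was -0.02. There Rpl7 was higher (1.25% of members) and 3 genes lower (3.75%), where 9.13% of all genes were higher and 7.61% lower.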

How the data were processed

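Cells were sorted live and processed by SORT-seq, an automated CEL-seq2 protocol in which each molecule carries a tag (stated in the labels' protocols). The aligner BWA 0.6.2-r126 and mm10 are named, without a role, in the submitters' processing notes. For other steps the sources used here give nothing. The deposited values are expected counts, estimates of transcript molecules per gene and well. They were rounded to whole numbers, and 81 spike-in lines were left out. On the tag scale read from the values, the highest ribosomal protein value in a kept well used 60.2% of the tags, so levels were below saturation.

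Counts were summed per library and class (at least 5 cells, or 3 for the luminal classes) and tested by the quasi-likelihood test of edgeR 4.0.16 under R 4.3.3, after TMM scaling and filterByExpr. P-values were adjusted by Benjamini-Hochberg over all genes that passed the filter, with a threshold of 0.05 and with DESeq2 1.42.0 as an alternative. Standard errors are approximate. Doublets were not removed. A marker list led a cell when its summed transcripts exceeded those of the basal, luminal, hormone-sensing and secretory lists added together. The members and all lists were chosen with earlier results of these data known. Named genes were the called ones, the 6 most abundant, the stalk, Rpsa and paralogs with their parents; others were named after their values were seen. Some items, among them 1 planned setting for the genes counted as ribosomal, are not reported here. On simulated data the luminal fit recovered 50.6% of 4-fold and 5.81% of 2-fold changes among 2480 genes, and the basal-luminal fit 100% and 25.3% among 3472. The simulated counts had the same dispersion for every gene and no library effect, so recovery in the real data may differ. Same-numbered libraries of the plates deviated together (correlations 0.352 to 0.627), a pairing read from the data that follows the classes; it changed no call of a ribosomal protein gene between plates. Coordinates come from GENCODE M21 (mm10), which held 82 of the 83 genes. Totals per library and the precision they give are stated with the shares, and intervals cover counting error only.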

Additional observations from a re-analysis of the deposited data

Results flagged for a closer look

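The basal sum of plate 1 library 2 stood apart from the other 3 basal sums in its share of ribosomal protein transcripts, 9.58%. It was also far below them for Rpl17 (15.7 per 10000 transcripts), Rpl36a (8.71), Rpl7 (17.6), Rps12 (20.7) and Rps4x (14.7), and far above them for Rpl7l1 (8.28) and Rplp2 (4.28). In that library 5 of 8 basal cells were led by markers of another cell type. The luminal sum of plate 1 library 1 was far above the other 3 luminal sums for Rpl7 (25.7), Rplp1 (45.2), Rplp2 (7.23), Rps12 (37.8) and Rps4x (32.3). It held 7 secretory cells and 1 hormone-sensing cell, the largest secretory part among the 4. Of 50 groups of 4 sums looked at, 13 held such a far sample, and chance flags about 1 in 20 groups. The genes share their sums, so the 13 are not independent.

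Wells that were not kept also held ribosomal protein transcripts. The share was 10.7% in the 579 wells under 500 transcripts and 7.77% in the 75 wells with more that were not kept, against 14.3% in kept wells.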

How the results depend on the processing

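The secretory share exceeded the hormone-sensing share in every setting run. With a smaller denominator, which left out at least the ribosomal protein transcripts, the shares were 14.3% (hormone-sensing, 3 sums) and 22.1% (secretory, 4 sums). The mean difference was then 7.98 points within the 3 libraries that held both. With pseudogene lines counted too, a setting added later, the secretory share was 18.3%. The other shares moved by less than 1 SD. Between basal and luminal cells, 1 gene was higher with cells of other types set aside at a minimum of 5 cells per sum, against 9.93% of all genes. With at least 3 cells per sum, added later, 1 was higher too, against 8.28% of all genes. On plate 2 alone 1 was higher, against 9.13% of all genes, and against hormone-sensing sums 1, where 13.6% were. Against those sums without such cells 7 were higher (8.97%), where 14.9% of all genes were. Without a filter on low counts 1 gene was lower, where 4.75% of all genes were. With cells thinned to 1500 transcripts 1 was lower, where 7.91% of all genes were, and on plate 1 alone 0, where 2.73% were. Against secretory sums 7 were lower (8.97%), where 7.08% of all genes were, and 13 (16.7%) without such cells, where 11.6% were. With the library as replicate block, which rests on single cells, 0 were lower, where 1.76% of all genes were. Leaving out 1 library gave 0 to 1 higher (at most 1.25%), where 5.95% to 10.1% of all genes were. It gave 1 to 4 lower (1.25% to 5%), where 5.56% to 9.88% of all genes were. Between the luminal classes, lower genes numbered 16 with no scaling, 17 with RLE factors and 1 with DESeq2. Of all genes 6.75%, 7.61% and 5.45% were lower there. Without the filter 0 were lower, where 1.11% of all genes were. With at least 3000 transcripts per well 3 of 77 (3.9%) were lower, where 1.14% of all genes were. With thinned cells 3 of 67 (4.48%) were lower, where 11.3% of all genes were. With no replicate block 10 of 78 (12.8%) were lower, where 7.2% of all genes were. With at least 1 cell of both classes, added later, 3 of 79 were lower, where 6.5% of all genes were. No replicate block at a minimum of 5 cells left a single hormone-sensing sum. The median log2 change was then -0.42, against -0.08 over all genes. Leaving out 1 library gave 0 lower each time, against 0.452% to 3.67% of all genes. The causes were not tested. Fewer sums entered where a library was left out, and more with at least 1 cell of both classes (8 against 6). More genes entered without the filter, 12052 against 2458 between the luminal classes. No result reversed among those called. The smallest sum of the luminal comparison held 12378 transcripts.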

Other observations

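Rplp2 and Rpsa were high in libraries 1 and 2 of plate 1 in both classes. Rplp2 stood at 7.23 per 10000 transcripts in the luminal sum of library 1 and at 4.28 in the basal sum of library 2, and between 0.290 and 1.39 in the 6 other sums. Rpsa stood at 33.4 and 24.7 in the same sums and between 9.66 and 14.7 in the others. The values are given as a description of these libraries.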
